A study of Mus musculus with 12 samples.

Results

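The comparison described here set RNA of B16 cells harvested on day 20 of a culture cycle against RNA harvested on day 8, both at 8 days after plating. B16 is an established mouse melanoma line that makes melanin in culture. Total RNA was measured on Illumina mouse bead arrays, and the arrays were chosen by their day label: 2 of day 20 and 2 of day 8, which is 4 of the 12 arrays of the series. The series covered 6 days (0, 4, 8, 12, 16 and 20) of a cycle in which the cells gained and lost pigment, with 1 array of set 1 and 1 of set 2 on each day. All cells grew in DMEM with 10% fetal calf serum and the labels name no other treatment. Per the protocol, the day 8 cells had been seeded at 100 cells per cm2 on day 0, and the day 20 cells had been replated on day 12 at 10000 cells per cm2. Day 8 was labelled pigmented and day 20 depigmented. A separate density label of each array read high (10000) for all 4 of these arrays, which for day 8 goes against the protocol. Time in culture, seeding density and the pigmentation label all differed between the days and cannot be told apart. The design text called the sets consecutive cycles of 1 line, and no other label told whether both arrays of one day had cultures of their own, so a p-value here reflects array-to-array spread that may be technical.

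B16 cells keep much of the melanocyte programme, in which the transcription factor MITF switches on the enzymes, transporters and structural proteins of the melanosome, the organelle that makes and stores melanin. Cells short of amino acids or with an overloaded endoplasmic reticulum (ER) raise translation of the transcription factor ATF4, whose targets include amino acid transporters and the stress factor CHOP. Interferon-induced genes, MHC genes and acute phase genes form further programmes that many cell types can switch on together.

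Values below are log2 normalised intensities, and differences are day 20 minus day 8 on that scale with the standard error (SE) from limma, with n = 2 arrays per day. A gene is said to have risen or fallen where its adjusted p was under 0.05. Most genes passed: of 11470 genes tested, 7833 (68.3%) were called, 3778 of them higher (32.9%) and 4055 lower (35.4%) on day 20. At 2-fold or more, 3195 genes were called (27.9%), 1473 higher (12.8%) and 1722 lower (15.0%), and at 8-fold or more 253 (2.21%). The arrays of the 2 days did not overlap for 9419 genes (82.1%). Counts for any gene group have to be read against these shares. The median difference over all genes was -0.044, with an SD across genes of 1.108, against 0.209 between the sets on day 8 and 0.216 on day 20. Correlations across genes were 0.996 within either day and 0.88 to 0.883 between the days. Before normalisation the mean signal was 419.2 and 366.0 on day 8 and 269.9 and 273.0 on day 20, a gap that quantile normalisation removes. In bulk RNA, fewer cells of a type and less RNA per cell cannot be told apart.

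**Figure D1:**
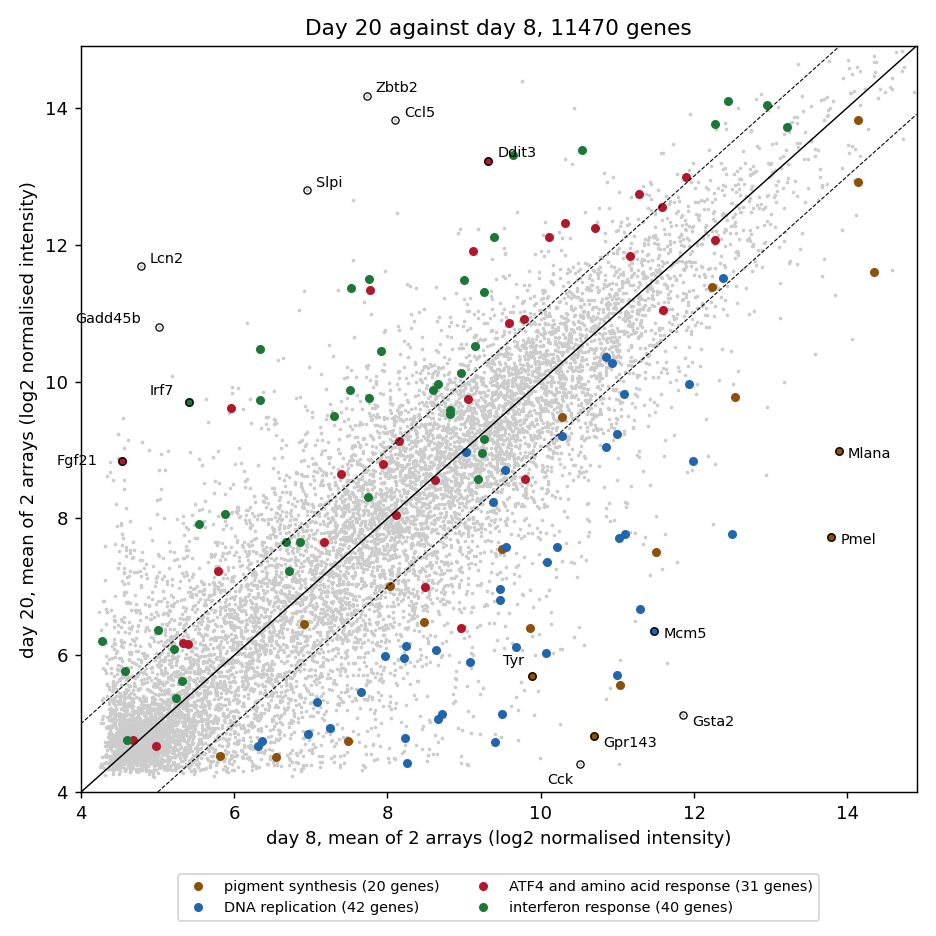
Mean log2 normalised intensity of 2 arrays on day 8 (horizontal) and day 20 (vertical), 1 point per gene for 11470 genes, with members of 4 gene groups coloured and named genes circled. The solid line marks equal levels and the dashed lines 2-fold differences. Most pigment and DNA replication genes lie below the lower dashed line, and most interferon and ATF4 genes above the solid line.

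Pigment genes were lower on day 20. All 20 measured members of the list for pigment synthesis and melanocyte identity fell, 16 of them by 2-fold or more, with a median of -2.38. Pmel, the fibril protein on which melanin is laid down, was at 13.80 and 13.77 on day 8 and 7.77 and 7.68 on day 20, a fall by 6.06 ± 0.07 (adjusted p = 1.16e-23). Gpr143, a melanosomal receptor, stood at 10.79 and 10.60 on day 8 and 4.69 and 4.96 on day 20 and fell by 5.87 ± 0.11. Trpm1, a melanocyte channel, was at 11.04 and 11.04 on day 8 and 5.59 and 5.54 on day 20, a difference of -5.48 ± 0.09, and its 3 other, dimmer probes gave -2.39, -2.23 and -0.97. For these 3 genes the arrays of the days lay more than 5 log2 units apart.

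Mlana, a melanosome membrane protein, was at 13.83 and 13.93 on day 8 and 9.02 and 8.96 on day 20, which is a difference of -4.89 ± 0.08. Among the melanin enzymes, Tyr, the rate-limiting tyrosinase, was at 9.90 and 9.89 on day 8 and 5.58 and 5.81 on day 20 and fell by 4.19 ± 0.11. Dct, a tautomerase of eumelanin synthesis, was at 14.29 and 14.40 on day 8 and 11.61 and 11.60 on day 20 and fell by 2.74 ± 0.08, while another probe gave -3.97. Tyrp1 was at 14.20 and 14.07 on day 8 and 12.93 and 12.89 on day 20 and fell by 1.22 ± 0.08, while its 2 other probes gave -3.15 and -3.16. All 3 enzymes thus fell on each probe measured, and for Dct and Tyrp1 the brightest probe gave the smallest difference.

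The transporters followed. Slc45a2 fell by 2.75 ± 0.07 on its brightest probe and by 2.58 to 4.97 on 3 others. Oca2, a melanosomal transporter, and Slc24a5, a cation exchanger, were detected on no array of day 20 and were at least 3.23-fold and at least 1.96-fold higher on day 8. Of the regulators, Mitf was at 9.94 and 9.78 on day 8 and 6.55 and 6.26 on day 20 and fell by 3.45 ± 0.12, but a second, dim Mitf probe gave 0.16. Kit, a receptor for stem cell factor, fell by 2.74 ± 0.13, and Mc1r, the melanocortin receptor, by 1.95 ± 0.12. Sox10, a transcription factor of the melanocyte lineage, was at 12.21 and 12.26 on day 8 and 11.32 and 11.43 on day 20, a fall by 0.86 ± 0.07. Pax3, another, was at 6.72 and 7.10 on day 8 and 6.39 and 6.53 on day 20 with a difference of -0.45 ± 0.15 (adjusted p = 0.0121), which missed the threshold without day 8 set 2 (-0.26, adjusted p = 0.215) or without day 20 set 1 (-0.38, adjusted p = 0.0821).

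The M-box, TCATGTG, is a motif that MITF is known to bind in melanocyte promoters. RefSeq promoters (250 bases before to 50 after a gene's start, build GRCm38.p6) were matched for 13 of the 20 pigment genes, and 7 of 13 (53.8%) held the motif on either strand, beside 255 of 9336 (2.73%) of all tested genes with a promoter. Of the genes 2-fold lower on day 20 with a promoter, 67 of 1402 (4.78%) held it. The 2 pigment genes with the motif and the largest differences were Trpm1 (chr7:64153585-64153884, plus strand, 1 of its 2 windows) and Tyr (chr7:87493463-87493762, minus strand). Their promoters are shown 5′ to 3′ with the M-box in capitals, its first base at -142 for Trpm1 and at -22 for Tyr, since these genes fell together.
Trpm1: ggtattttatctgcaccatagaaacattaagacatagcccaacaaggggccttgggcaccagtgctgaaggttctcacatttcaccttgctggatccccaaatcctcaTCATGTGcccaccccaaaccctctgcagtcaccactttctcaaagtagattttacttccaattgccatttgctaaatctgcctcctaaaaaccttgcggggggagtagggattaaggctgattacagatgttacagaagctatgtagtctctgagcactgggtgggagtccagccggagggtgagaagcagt
Tyr: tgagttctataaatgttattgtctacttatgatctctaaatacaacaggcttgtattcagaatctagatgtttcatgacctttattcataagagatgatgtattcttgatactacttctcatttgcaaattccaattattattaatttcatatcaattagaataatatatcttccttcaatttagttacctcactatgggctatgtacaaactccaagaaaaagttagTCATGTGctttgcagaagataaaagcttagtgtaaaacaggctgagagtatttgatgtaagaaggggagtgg

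Genes for building and moving melanosomes were lower as well. Of 27 measured, 19 fell and 4 rose, with a median of -0.91. Mlph, the melanophilin that links melanosomes to a myosin motor, was detected on no day 20 array and was at least 7.64-fold higher on day 8. Its partners Rab27a and Myo5a fell by 2.21 ± 0.07 and 2.39 ± 0.08, though other Myo5a probes gave -0.27 and, dimmest, 0.84. Rab32 and Rab38, small GTPases that deliver pigment enzymes, were lower, since Rab32 fell by 2.90 ± 0.10 and Rab38 fell by 2.20 ± 0.08. Bloc1s6, a subunit of the sorting complex BLOC-1, rose by 0.59 ± 0.09. The lysosome list, whose organelle shares sorting routes with the melanosome, had 16 of 30 genes lower and 8 higher, with a median of -0.27 (-0.47 with median centring). Its largest falls were Gusb and Tpp1, lysosomal hydrolases, at -2.32 ± 0.08 and -2.15 ± 0.12, and Mcoln1, a calcium channel, at -2.22 ± 0.15. The protease gene Ctsl rose by 1.30 ± 0.16. The E-box CACGTG, a motif of the MITF and TFEB family, stood in the promoters of 9 of 23 (39.1%) melanosome and 12 of 26 (46.2%) lysosome genes, against 1109 of 9336 (11.9%) of all tested genes. Those were the highest shares among the lists searched. The pigment list held the E-box for 2 of 13 genes (15.4%). Ribosome biogenesis, the list for which the motif had been chosen, held it for 6 of 29 (20.7%). Of genes 2-fold lower on day 20, 186 of 1402 (13.3%) held it, and 123 of 1196 (10.3%) of those 2-fold higher.

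**Figure D2:**
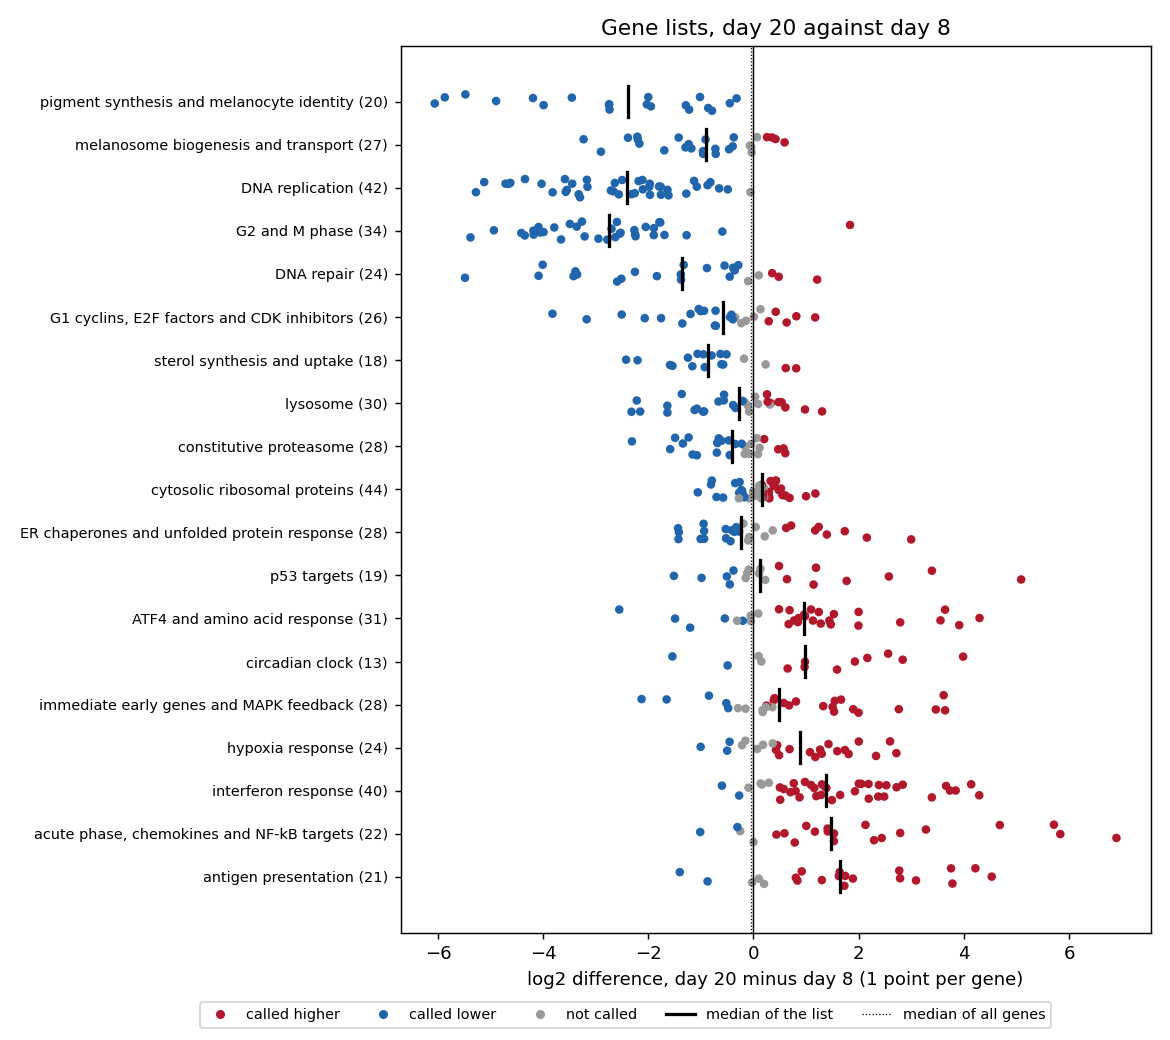
Log2 difference, day 20 minus day 8, of each measured member of 19 gene lists (number of genes in brackets); red points were called higher, blue points lower and grey points not called, black bars are list medians and the dotted line the median of all genes. The replication and mitosis lists lie almost wholly below 0, and the interferon, acute phase and antigen lists mostly above.

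Genes of cell division were lower on day 20 almost throughout. On the DNA replication list 41 of 42 genes fell and 0 rose, 37 by 2-fold or more, with a median of -2.41. Mcm5, part of the replicative helicase, was at 11.44 and 11.52 on day 8 and 6.42 and 6.30 on day 20 and fell by 5.12 ± 0.08 (adjusted p = 2.28e-22). Tk1, the thymidine kinase of S phase, was at 10.98 and 10.99 on day 8 and 5.63 and 5.79 on day 20, a fall by 5.28 ± 0.10, and its dimmer probes gave -2.01, -0.42 and -0.39. Uhrf1, which guides maintenance methylation of DNA, fell by 4.71 ± 0.08 (-1.64 on a dim probe), and the flap endonuclease Fen1 by 4.62 ± 0.10. Cdc6, which loads the helicase, was detected on no day 20 array and was at least 23.3-fold higher on day 8, with dim probes at -0.65 and -0.39. Pcna, the sliding clamp, was at 9.43 and 9.32 on day 8 and 8.23 and 8.26 on day 20 and fell by the lesser amount of 1.13 ± 0.10. The arrays of the days did not overlap for 41 of the 42 replication genes, beside 82.1% of all genes.

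On the list for G2 and M phase 33 of 34 genes fell, with a median of -2.74. Birc5, a subunit of the chromosomal passenger complex, was at 10.85 and 10.96 on day 8 and 5.47 and 5.58 on day 20 and fell by 5.38 ± 0.09 (adjusted p = 1.84e-21). Foxm1, a transcription factor of mitotic genes, was at 9.70 and 9.70 on day 8 and 4.83 and 4.70 on day 20 and fell by 4.94 ± 0.09. The mitotic kinases Aurkb and Plk1 fell by 4.41 ± 0.08 and 4.35 ± 0.12, the activator of the anaphase-promoting complex Cdc20 by 4.19 ± 0.09, and the topoisomerase gene Top2a by 4.09 ± 0.09, with other probes at -3.30 and, near background, -0.44. Cdk1, the mitotic kinase itself, was at 11.45 and 11.34 on day 8 and 9.40 and 9.29 on day 20 and fell by 2.05 ± 0.08, while 2 probes near background gave -0.99 and 0.22. Its cyclin Ccna2 was detected on no day 20 array and was at least 4.23-fold higher on day 8. Pttg1, the securin gene, was the 1 member that rose, at 4.89 and 4.90 on day 8 and 6.81 and 6.65 on day 20, a difference of 1.84 ± 0.21. Other members of the same programme stood among the largest falls of all genes: Pclaf, a clamp-binding factor, at -5.76 ± 0.08 and Pbk, a mitotic kinase, at -5.49 ± 0.09.

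Promoters of these genes were searched, on both strands, for 2 motifs known from cell cycle genes. The CHR, TTTGAA, was present for 22 of 28 (78.6%) G2 and M phase genes and for 1346 of 9336 (14.4%) of all tested genes. An E2F site, searched as TTTGGCGC or TTTCCCGC, was present for 10 of 35 (28.6%) replication genes and 311 of 9336 (3.33%) of all tested genes. Of the 1402 genes 2-fold lower on day 20 with a promoter, 270 (19.3%) held the CHR and 83 (5.92%) an E2F site. The promoters shown are those with the motif and the largest differences of their list, Plk1 (chr7:122159185-122159484, plus strand) and Cdc20 (chr4:118437294-118437593, minus strand) with the CHR in capitals, and Mcm5 (chr8:75109259-75109558, plus strand) and Cdc6 (chr11:98907901-98908200, plus strand) with the E2F site in capitals.
Plk1: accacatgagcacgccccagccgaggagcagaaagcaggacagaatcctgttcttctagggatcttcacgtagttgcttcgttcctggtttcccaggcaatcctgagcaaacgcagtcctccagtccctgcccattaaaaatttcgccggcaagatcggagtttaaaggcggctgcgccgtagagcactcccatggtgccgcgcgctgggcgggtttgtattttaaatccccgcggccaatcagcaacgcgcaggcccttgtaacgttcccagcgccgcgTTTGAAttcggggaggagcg
Cdc20: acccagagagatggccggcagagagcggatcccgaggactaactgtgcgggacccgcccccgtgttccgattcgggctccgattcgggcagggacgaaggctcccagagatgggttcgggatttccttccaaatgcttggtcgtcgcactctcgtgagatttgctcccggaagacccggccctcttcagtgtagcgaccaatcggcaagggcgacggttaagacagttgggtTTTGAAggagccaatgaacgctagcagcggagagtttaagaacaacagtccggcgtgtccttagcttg
Mcm5: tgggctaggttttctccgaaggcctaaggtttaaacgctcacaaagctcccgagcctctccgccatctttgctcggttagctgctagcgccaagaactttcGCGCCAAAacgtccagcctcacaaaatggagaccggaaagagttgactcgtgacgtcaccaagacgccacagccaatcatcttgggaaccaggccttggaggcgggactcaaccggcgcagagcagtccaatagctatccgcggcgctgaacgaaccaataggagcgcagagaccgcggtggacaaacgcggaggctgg
Cdc6: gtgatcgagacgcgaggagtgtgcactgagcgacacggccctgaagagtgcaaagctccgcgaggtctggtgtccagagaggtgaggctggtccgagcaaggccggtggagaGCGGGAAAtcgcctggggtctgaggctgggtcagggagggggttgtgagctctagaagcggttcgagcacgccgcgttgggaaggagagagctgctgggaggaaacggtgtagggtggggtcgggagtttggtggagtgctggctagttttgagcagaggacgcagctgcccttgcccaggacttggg

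Regulators of entry into the cycle moved in both directions, with 16 of 26 genes lower and 5 higher. Ccnd1, the D cyclin of growth factor signalling, was at 11.68 and 11.72 on day 8 and 9.62 and 9.64 on day 20 and fell by 2.07 ± 0.08. The kinase gene Cdk2 fell by 3.17 ± 0.08, Ccne2 by 2.51 ± 0.13 and Ccne1 by 1.01 ± 0.15. Of the E2F factors, E2f2 fell by 3.82 ± 0.12 and E2f1 by 1.04 ± 0.09, and E2f5, a repressive member, rose by 0.81 ± 0.09. Cdkn1a, p21, was at 11.98 and 11.88 on day 8 and 12.06 and 12.07 on day 20 with a difference of 0.13 ± 0.07 on its brightest probe that did not pass (adjusted p = 0.0928) and that turned to -0.19 with median centring. Its 2 other probes, also bright, were higher on day 20, at 0.44 (adjusted p = 0.00122 over all probes) and 0.74 (adjusted p = 7.53e-06), so the Cdkn1a probes disagree on whether the gene passed. Cdkn1b, p27, was at 6.83 and 6.94 on day 8 and 6.95 and 6.84 on day 20 and had a difference of 0.01 ± 0.14 (adjusted p = 0.967). Cdkn1c, p57, was detected on no day 8 array and was at least 1.77-fold higher on day 20. Of the DNA repair genes 19 of 24 fell and 3 rose, with a median of -1.35 that came to -0.55 over the 15 genes whose probes were detected on all arrays. That filter leaves out genes undetected on day 20. Brca1 was at least 35.1-fold and Fancd2 at least 13.8-fold lower on day 20, where neither was detected, and a dimmer Brca1 probe gave -1.69. Fanca, of the same Fanconi complex family, was among those that rose, by 1.21 ± 0.13.

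Genes of the ATF4 response were higher. Of 31 measured, 22 rose and 5 fell, with a median of 0.96, and 14 of those that rose did so by 2-fold or more. Ddit3, which encodes CHOP, was at 9.31 and 9.31 on day 8 and 13.23 and 13.22 on day 20 and rose by 3.91 ± 0.10 (adjusted p = 9.46e-19). Fgf21, a secreted stress hormone, was detected on no day 8 array, at 4.52 and 4.56 on day 8 and 8.86 and 8.81 on day 20, and was at least 15.4-fold higher on day 20. Atf3, a stress transcription factor, was at 5.91 and 6.02 on day 8 and 9.56 and 9.66 on day 20 and rose by 3.64 ± 0.14. For all 3 genes both arrays of day 20 lay far above both of day 8.

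Ppp1r15a, the phosphatase subunit that restarts translation after stress, was at 7.64 and 7.91 on day 8 and 11.33 and 11.34 on day 20, a rise of 3.56 ± 0.11. Trib3, a feedback inhibitor, rose by 2.79 ± 0.08, and the glutathione-degrading enzyme gene Chac1 by 1.47 ± 0.07. Atf4 itself was at 11.54 and 11.62 on day 8 and 12.65 and 12.43 on day 20 and rose by 0.96 ± 0.08, and Asns, asparagine synthetase, by 1.09 ± 0.07. Slc7a11, the cystine transporter, went the other way at 8.94 and 8.97 on day 8 and 6.43 and 6.37 on day 20, a difference of -2.55 ± 0.12, while 3 dimmer probes gave -0.60, -0.03 and 0.83. Shmt2, a mitochondrial one-carbon enzyme, fell by 1.49 ± 0.13. The other members that fell, which made 5 with Slc7a11 and Shmt2, were Phgdh and Psat1 of serine synthesis and Mthfd2, a one-carbon enzyme, named after their values were seen, at -1.20 ± 0.10, -0.54 ± 0.07 and -0.20 ± 0.07.

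The amino acid response element CARE, TGATGNAA, which ATF4 and its partners are known to bind, was present for 8 of 26 (30.8%) ATF4 list promoters and 265 of 9336 (2.84%) of all tested genes. Of the genes 2-fold higher on day 20 with a promoter, 48 of 1196 (4.01%) held it. Fgf21 (chr7:45615441-45615740, minus strand) and Atf3 (chr1:191183284-191183583, minus strand) had the largest rises among list genes with it. They are shown with the element in capitals, read here on the opposite strand.
Fgf21: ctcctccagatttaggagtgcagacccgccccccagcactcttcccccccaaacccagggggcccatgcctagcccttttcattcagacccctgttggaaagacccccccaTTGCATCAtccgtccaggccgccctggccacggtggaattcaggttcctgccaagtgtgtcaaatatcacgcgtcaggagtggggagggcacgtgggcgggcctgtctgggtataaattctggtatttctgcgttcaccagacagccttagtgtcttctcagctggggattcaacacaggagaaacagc
Atf3: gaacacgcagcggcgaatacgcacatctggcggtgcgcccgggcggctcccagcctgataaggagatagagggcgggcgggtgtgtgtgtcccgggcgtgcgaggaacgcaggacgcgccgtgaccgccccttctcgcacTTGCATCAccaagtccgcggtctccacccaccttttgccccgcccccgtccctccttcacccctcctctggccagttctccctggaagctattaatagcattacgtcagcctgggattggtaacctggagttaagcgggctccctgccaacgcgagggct

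Of the cytosolic aminoacyl-tRNA synthetases, which charge tRNAs and include known ATF4 targets, 8 of 19 rose and 5 fell, with a median of 0.12 that turned to -0.07 with median centring. Cars rose by 1.96 ± 0.10 (a probe near background gave -0.43), Yars by 1.16 ± 0.19 and Rars by 1.01 ± 0.08, and Qars fell by 1.59 ± 0.09. ER chaperones were split, with 8 of 28 higher and 14 lower. Their median was -0.23, and -0.38 to -0.09 over the alternatives. Hspa5, the chaperone BiP, was at 9.95 and 9.63 on day 8 and 11.26 and 11.11 on day 20 and rose by 1.39 ± 0.13. The stress sensor gene Ern1 rose by 2.16 ± 0.11, the co-chaperone gene Dnajb9 by 1.24 ± 0.08, the degradation factor gene Sel1l by 1.74 ± 0.09 on its brightest probe (2.25 and -0.20 on others) and Xbp1 by 0.62 ± 0.07. Atf6, a further sensor, was at least 6.5-fold higher on day 20 on 1 probe, while another gave 0.23. Hsp90b1 was at 13.51 and 13.64 on day 8 and 13.28 and 13.32 on day 20, a fall by 0.27 ± 0.09 that missed the threshold without day 8 set 2, without day 20 set 1 or without the intensity trend. Calr was at 10.89 and 10.94 on day 8 and 10.86 and 10.80 on day 20, and its difference of -0.08 ± 0.11 did not pass.

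The ER stress element ERSE, CCAAT and CCACG spaced by 9 bases, was present for 8 of 23 (34.8%) ER list promoters and 16 of 9336 (0.171%) of all tested genes. It was present for 3 of 1196 (0.251%) genes 2-fold higher and 2 of 1402 (0.143%) genes 2-fold lower on day 20. The 2 called list members with it and the largest differences fell: Dnajc3 by 1.43 ± 0.10 and Pdia6 by 1.43 ± 0.09, though a second Pdia6 probe gave 1.66 and the mean of its probes turned the sign, at 0.11. Their promoters (chr14:118937682-118937981, plus strand, and chr12:17266339-17266638, plus strand) follow with the element in capitals, since their differences on the brightest probe were the largest among called list members with it.
Dnajc3: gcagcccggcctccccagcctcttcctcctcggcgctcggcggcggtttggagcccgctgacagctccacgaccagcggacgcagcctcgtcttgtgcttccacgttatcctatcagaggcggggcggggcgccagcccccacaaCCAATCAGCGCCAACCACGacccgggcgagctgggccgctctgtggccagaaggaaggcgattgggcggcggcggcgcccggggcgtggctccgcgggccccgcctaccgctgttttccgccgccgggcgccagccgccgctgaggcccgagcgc
Pdia6: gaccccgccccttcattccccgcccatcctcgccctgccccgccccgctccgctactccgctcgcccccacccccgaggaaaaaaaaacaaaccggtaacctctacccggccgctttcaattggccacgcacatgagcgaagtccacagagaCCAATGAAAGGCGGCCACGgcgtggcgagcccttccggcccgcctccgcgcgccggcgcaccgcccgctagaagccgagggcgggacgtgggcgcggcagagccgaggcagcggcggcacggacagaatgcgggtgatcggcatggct

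The Gadd45 genes, which encode growth arrest and stress sensors, were among the largest rises. Gadd45a was at 7.33 and 7.77 on day 8 and 12.62 and 12.67 on day 20 and rose by 5.09 ± 0.12 (adjusted p = 3.37e-19). Gadd45b was at 4.96 and 5.07 on day 8 and 10.77 and 10.84 on day 20 and rose by 5.79 ± 0.12. Gadd45g, named after its values were seen, was at 8.90 and 8.94 on day 8 and 12.16 and 12.18 on day 20, a rise of 3.25 ± 0.08. Of the p53 targets, 8 of 19 rose and 5 fell, and the share called in either direction, 68.4%, was near the 68.3% of all genes. At 2-fold or more 6 rose and 1 fell, beside 12.8% and 15.0% of all genes. Beside Gadd45a, the death receptor gene Fas rose by 3.39 ± 0.15, Plk2 by 2.57 ± 0.10 and Rrm2b by 1.77 ± 0.10. Mdm2, the p53 ligase and itself a classic target, fell by 0.38 ± 0.08, and Ccng1, another, by 1.51 ± 0.08 (-0.95 and -0.84 on other probes). On the apoptosis list 12 of 19 rose and 5 fell, with Birc2, an inhibitor of apoptosis, at 2.48 ± 0.08, and Bcl2, a survival factor, at -1.51 ± 0.15, where 5 dimmer probes ran from -1.30 to 0.23.

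The list built around NRF2, the regulator of antioxidant genes, holds its targets, the metallothioneins, its inhibitor and NRF2 itself, and had 12 of 24 genes lower and 5 higher. The gene for NRF2, Nfe2l2, was at 8.37 and 8.37 on day 8 and 11.31 and 11.42 on day 20, and its rise of 2.99 ± 0.09 was the largest of the list. Its inhibitor Keap1 fell by 1.34 ± 0.09, and among targets Gclm fell by 1.26 ± 0.08 and Hmox1 by 0.84 ± 0.12. Nqo1 was at 7.99 and 8.12 on day 8 and 8.09 and 7.85 on day 20, and its difference of -0.08 ± 0.12 did not pass. The largest fall on the list was -2.55. Gsta2 and Gsta1, glutathione transferases outside the list, had the largest falls of all genes, at -6.72 ± 0.08 and -6.66 ± 0.09. Gsta2 was at 11.88 and 11.82 on day 8 and 5.15 and 5.11 on day 20 and Gsta1 at 11.85 and 11.81 on day 8 and 5.20 and 5.13 on day 20; the genes are near-identical copies, and their probes may measure the same transcripts. Cytosolic heat shock proteins showed 7 of 17 higher and 6 lower, with the small heat shock protein gene Cryab at 1.23 ± 0.13.

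Interferon-induced genes were higher on day 20. Of 40 measured, 34 rose and 2 fell, 26 rose by 2-fold or more, and the median was 1.37. Irf7, a transcription factor that amplifies the response, was at 5.43 and 5.39 on day 8 and 9.75 and 9.66 on day 20 and rose by 4.29 ± 0.12 (adjusted p = 6.16e-18). Dhx58, an RNA sensor, was at 6.24 and 6.44 on day 8 and 10.50 and 10.46 on day 20 and rose by 4.14 ± 0.09. Isg15, a ubiquitin-like modifier, was at 7.63 and 7.89 on day 8 and 11.48 and 11.50 on day 20 and rose by 3.74 ± 0.10. The arrays of the days lay far apart for each. Oasl2 rose by 3.84 ± 0.12 and Ifit3 by 3.66 ± 0.07. The 2 members that fell were also RNA sensors: Eif2ak2, the kinase PKR, at -0.60 ± 0.09, and Ddx58, which encodes RIG-I, at -0.27 ± 0.08, a call that was lost with the mean of its probes (-0.13, adjusted p = 0.188).

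The interferon-stimulated response element ISRE, GAAA repeated after 2 bases of any kind, was present for 18 of 30 (60%) interferon list promoters and 335 of 9336 (3.59%) of all tested genes. Of the genes 2-fold higher on day 20 with a promoter, 67 of 1196 (5.6%) held it. Isg15 (chr4:156200769-156201068, minus strand) and Ifit3 (chr19:34583279-34583578, plus strand) had the largest rises among list genes with it, and both promoters hold more than 1 match, in capitals.
Isg15: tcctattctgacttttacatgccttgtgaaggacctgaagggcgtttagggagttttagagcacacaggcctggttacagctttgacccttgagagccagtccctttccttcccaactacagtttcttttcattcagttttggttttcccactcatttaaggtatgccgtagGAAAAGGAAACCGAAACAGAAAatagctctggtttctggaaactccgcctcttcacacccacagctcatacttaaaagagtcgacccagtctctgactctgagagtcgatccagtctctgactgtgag
Ifit3: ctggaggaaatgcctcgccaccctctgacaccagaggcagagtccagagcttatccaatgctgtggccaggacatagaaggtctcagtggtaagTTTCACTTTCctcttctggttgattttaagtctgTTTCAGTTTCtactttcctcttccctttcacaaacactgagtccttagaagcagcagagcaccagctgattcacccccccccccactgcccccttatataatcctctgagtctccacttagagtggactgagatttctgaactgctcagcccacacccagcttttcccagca

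Antigen presentation genes rose with them, 16 of 21, with 2 lower and a median of 1.64. H2-K1, an MHC class I heavy chain, was at 7.79 and 7.66 on day 8 and 11.44 and 11.58 on day 20 and rose by 3.78 ± 0.10. H2-T23, a nonclassical class I gene, rose by 4.22 ± 0.10, and B2m, the shared light chain, by 0.92 ± 0.07. H2-Ab1, an MHC class II chain, was detected on no day 8 array and was at least 19.2-fold higher on day 20. H2-DMa, which loads class II peptides, rose by 3.76 ± 0.11. The inducible proteasome subunit gene Psmb8 rose by 3.09 ± 0.09, but its companion Psmb10 fell by 0.87 ± 0.10. MHC genes form families of similar sequence, so a probe may pick up more than 1 member.

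Acute phase genes and chemokines were mostly higher and included the largest rise of all genes. Of 22 measured, 18 rose and 2 fell, with a median of 1.47. Lcn2, lipocalin 2, which binds bacterial iron carriers, was at 4.89 and 4.68 on day 8 and 11.69 and 11.68 on day 20 and rose by 6.90 ± 0.13 (adjusted p = 1.16e-20). Slpi, a protease inhibitor, was at 7.04 and 6.88 on day 8 and 12.78 and 12.81 on day 20 and rose by 5.83 ± 0.09. Ccl5, a chemokine, was at 8.19 and 8.01 on day 8 and 13.70 and 13.93 on day 20 and rose by 5.71 ± 0.09. Saa3, an acute phase protein gene, rose by 4.68 ± 0.09 and the chemokine gene Cxcl10 by 3.28 ± 0.11. Cebpd, a transcription factor of the acute phase, fell by 1.01 ± 0.09, with a probe near background at 0.22.

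**Figure D3:**
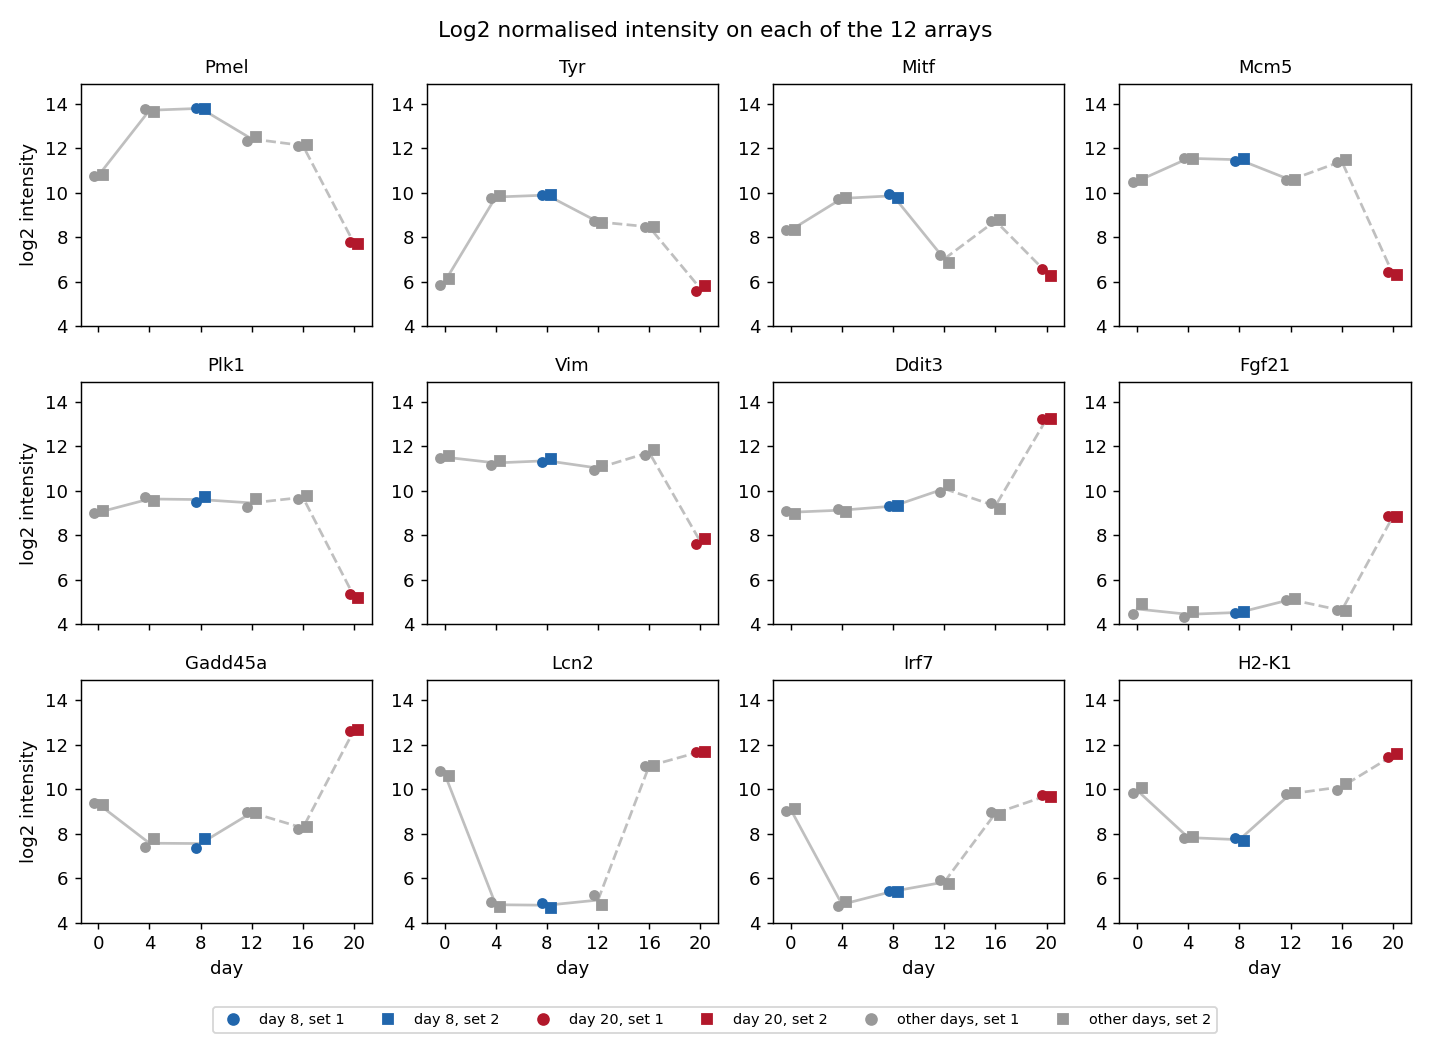
Log2 normalised intensity of 12 genes on each of the 12 arrays by day, with circles for set 1 and squares for set 2, day 8 in blue and day 20 in red; lines join day means, dashed after the replating of day 12. Both arrays of day 20 lie apart from both arrays of day 8 in every panel, and outside the range of all arrays of the other days.

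Immediate early genes, the fast transcriptional answer to growth factors and stress, were more often higher, with 17 of 28 up and 5 down. Fosb was at 5.92 and 6.01 on day 8 and 9.39 and 9.77 on day 20 and rose by 3.62 ± 0.13, and Egr1 was at 7.69 and 7.69 on day 8 and 11.14 and 11.17 on day 20 and rose by 3.47 ± 0.08. Fos rose by 1.55 ± 0.09, and Zfp36, an mRNA decay factor, by 2.76 ± 0.11. Among members that feed back on the MAPK pathway, Dusp6, an ERK phosphatase, fell by 1.65 ± 0.07, Spred1, a RAS inhibitor, fell by 2.13 ± 0.10, and Dusp5, another ERK phosphatase, rose by 2.00 ± 0.16. Myc was at 5.36 and 5.56 on day 8 and 5.84 and 5.43 on day 20, and its difference of 0.18 ± 0.17 did not pass.

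Clock genes were mostly higher, 9 of 13, with 2 lower, the lowest at -1.54, and a median of 0.98. Per1, a repressor of the clock, was at 7.29 and 7.41 on day 8 and 11.33 and 11.34 on day 20 and rose by 3.99 ± 0.09. Per2 rose by 2.56 ± 0.16, Cry2 by 2.17 ± 0.15 and the output factor gene Dbp by 1.93 ± 0.07, and Nr1d1 was at least 6.25-fold higher on day 20. The sources used here give no hour of harvest, and its part in these values was not tested. Among FOXO targets and nutrient-sensing arrestins, 8 of 16 rose and 3 fell, the lowest at -1.34, with a median of 0.3. Txnip, an arrestin that limits glucose uptake, was at 8.12 and 8.13 on day 8 and 12.47 and 12.44 on day 20 and rose by 4.33 ± 0.07. Irs2, an insulin signalling adaptor, rose by 2.97 ± 0.12 and Bcl6 by 2.48 ± 0.09. Of 20 autophagy genes 10 rose and 6 fell. Gabarapl1, which builds autophagosomes, rose by 1.90 ± 0.08 and the kinase gene Ulk1 by 1.50 ± 0.09. The autophagy receptor gene Sqstm1 fell by 0.82 ± 0.07.

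Hypoxia genes were higher, 16 of 24, with 3 lower and a median of 0.88. Vegfa, the vascular growth factor, was at 9.64 and 9.39 on day 8 and 12.21 and 12.27 on day 20 and rose by 2.72 ± 0.09. Hilpda, a lipid droplet protein gene, rose by 2.33 ± 0.07, P4ha1, a collagen hydroxylase gene, by 2.00 ± 0.10, and Ndrg1 by 1.81 ± 0.14. Egln1, an oxygen sensor that is itself a hypoxia target, fell by 1.00 ± 0.17. The glycolysis list did not move one way, with 7 of 18 genes higher and 7 lower. Eno2 rose by 1.70 ± 0.09, and the glucose transporter genes Slc2a1 and Slc2a3 fell by 0.68 ± 0.09 and 1.08 ± 0.11.

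Lipid and sterol genes differed by branch. Of the sterol synthesis genes 14 of 18 fell and 2 rose, with a median of -0.86. Fdps, which makes farnesyl diphosphate, was at 12.59 and 12.56 on day 8 and 10.16 and 10.15 on day 20 and fell by 2.42 ± 0.07. Nsdhl of the later pathway fell by 2.20 ± 0.13 and Lss fell by 1.54 ± 0.13, and Dhcr7, which acts near the last step, rose by 0.81 ± 0.10. In fatty acid synthesis and storage, with 7 of 19 higher and 7 lower, the desaturase gene Scd1 was at 10.17 and 10.23 on day 8 and 7.17 and 7.12 on day 20 and fell by 3.05 ± 0.09. Fads2, a second desaturase gene, fell by 2.55 ± 0.14 and the regulator gene Srebf1 by 1.68 ± 0.14. Dgat2, which makes triglyceride for storage, was at 6.22 and 6.53 on day 8 and 9.79 and 9.90 on day 20 and rose by 3.47 ± 0.13. Fatty acid oxidation genes showed 8 of 19 higher and 6 lower, with Hadha at 1.71 ± 0.14 and Cpt2 at 1.08 ± 0.08.

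Most housekeeping machines were nearer to the background, but constitutive proteasome genes were more often lower. Ribosome biogenesis had 11 of 33 genes higher and 14 lower, with Pes1, a factor of large subunit assembly, at -4.49 ± 0.11 and nucleolin, Ncl, at -2.35 ± 0.10. Cytosolic ribosomal proteins had 21 of 44 higher and 12 lower, and 1 and 1 at 2-fold, with a median of 0.17 that turned to -0.11 with median centring. Oxidative phosphorylation had 16 of 43 nuclear genes higher and 12 lower, with the subunit gene Cox5b, at 13.82 and 13.85 on day 8 and 11.26 and 11.28 on day 20, falling by 2.57 ± 0.09. Its median of 0.11 turned to -0.27 with median centring. Constitutive proteasome subunits fell in 16 of 28 cases, beside 35.4% of all genes, and rose in 4. Their median was -0.40, and -0.60 to -0.28 over the alternatives. The largest falls were in Psmd6 at -2.31 ± 0.15 and Psmc3 at -1.58 ± 0.09. Nucleotide synthesis had 8 of 20 lower and 4 higher, among them Impdh1 of guanine synthesis at 2.86 ± 0.13 and Mthfd1 at -2.04 ± 0.10.

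Genes of cell shape and lineage state moved in both directions. Sox9, a neural crest factor, was at 11.46 and 11.39 on day 8 and 7.21 and 7.13 on day 20 and fell by 4.25 ± 0.08. Vim, the intermediate filament vimentin, was at 11.28 and 11.43 on day 8 and 7.60 and 7.86 on day 20 and fell by 3.63 ± 0.10, and nestin, Nes, fell by 1.75 ± 0.10. Ngfr, a receptor of neural crest-like melanoma states, was detected on no day 8 array and was at least 3.02-fold higher on day 20, and the filament gene Prph rose by 2.79 ± 0.11. On that list 6 of 12 fell and 3 rose. Of the YAP targets, which answer to crowding, 6 of 19 rose and 4 fell: Ccn1 rose by 2.53 ± 0.08 and Ccn2, its close relative, fell by 1.37 ± 0.10. The receptor gene Axl rose by 1.54 ± 0.08 on its bright probe, and a probe near background gave -0.16. Extracellular matrix and adhesion genes were split at 12 and 11 of 32, with the integrin gene Itga5 at 2.54 ± 0.10, the laminin gene Lama5 at 2.46 ± 0.13 and the hyaluronan receptor gene Cd44 at -1.69 ± 0.07, whose 6 other probes all gave negative values, from -3.20 to -0.10. Of the TGF-beta and BMP list 1 of 10 rose and 3 fell, of the NOTCH list 5 of 10 rose and 2 fell, led by Hes1 at 1.63 ± 0.13, and of the WNT list 2 of 4 rose while Axin2, a feedback target, fell by 2.34 ± 0.12 as its 1 lower member.

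Several of the largest differences lay outside the lists. Zbtb2, a zinc finger transcription factor gene, was at 7.72 and 7.74 on day 8 and 14.15 and 14.19 on day 20 and rose by 6.44 ± 0.07 (adjusted p = 8.06e-24). Prf1, the perforin gene of cytotoxic lymphocytes, was at 9.85 and 9.67 on day 8 and 14.39 and 14.40 on day 20, a rise of 4.63 ± 0.09 at a high level. B3galnt1, a glycosyltransferase gene, was at least 23.9-fold, and Fam71f2 at least 20.3-fold, higher on day 20, and Rem2, a small GTPase gene, rose by 4.89 ± 0.13. Cck, the cholecystokinin hormone gene, was at 10.56 and 10.46 on day 8 and 4.48 and 4.34 on day 20, was detected on no day 20 array and was at least 50.3-fold lower there. ND4L, a mitochondrially encoded subunit of respiratory complex I, was at 11.31 and 10.74 on day 8 and 4.39 and 4.45 on day 20 and was at least 72.2-fold lower on day 20.

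Markers of other cell types were low on all 4 arrays. Of the 8 leukocyte markers on the array 2 were measured, Fcer1g and Lyz2, at 4.44 to 6.38, and both were lower on day 20, while Ptprc, Cd3e, Cd3g, Itgam, Csf1r and Adgre1 did not pass the detection filter. Fibroblast markers Pdgfra, Col1a1 and Pdgfrb lay between 4.32 and 5.38, and Krt1 of keratinocytes and Vwf of endothelium between 4.47 and 5.16. Pdgfra, detected on no day 8 array, was higher on day 20 by at least 1.37-fold, and the bound for Col1a1 was 1.06-fold, the latter call being lost without day 8 set 2 or either day 20 array. Leukocytes are known to express MHC class II genes and Prf1, which were higher on day 20. Whether any such cells were present was not tested, and only 2 dim leukocyte markers could be measured.

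The same difference was available at 4 days after plating, as day 16 minus day 4, from 4 arrays that the day 20 and day 8 comparison does not use: day 4 (pigmented) followed the sparse seeding and day 16 (depigmented) the dense replating, while the density label of all 4 read low (100), which for day 16 goes against the protocol. There 5396 genes were called (47.0%), and 909 at 2-fold (7.93%), and the SD across genes was 0.606. Called at 2-fold in both comparisons were 318 genes higher in each, 201 lower in each and 25 in opposite directions. The 318 are 21.6% of the genes 2-fold higher at 8 days and 55.2% of those at 4 days, and the 201 are 11.7% and 60.4% of those lower. The day 20 minus day 8 difference itself differed from the day 16 minus day 4 difference for 6420 genes (56.0%) in the interaction test, 2939 with the former larger (25.6%) and 3481 with it smaller (30.3%).

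The gene groups fell into kinds by this test. Cell cycle genes differed far less at 4 days: the median there was -0.10 for replication and 0.08 for G2 and M phase, and 42 of 42 and 32 of 34 genes were lower in the interaction. Mcm5 had a difference of -0.13 ± 0.08 at 4 days, and Birc5 of -0.16 ± 0.09. ATF4 genes were opposite, with a median of -0.52 at 4 days and 26 of 31 higher in the interaction. Ddit3 had 0.19 ± 0.10 at 4 days, Fgf21 0.17 ± 0.16 and Chac1 -1.24 ± 0.07. ER chaperones had a median of -0.75 at 4 days, against -0.23 at 8 days, and 17 of 28 were higher in the interaction. Hspa5 had -0.99 ± 0.13 at 4 days.

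Interferon and acute phase genes were higher at both times. The interferon median was 1.69 at 4 days, with 8 of 40 genes higher and 12 lower in the interaction, and the acute phase median 1.91, with 7 and 8 of 22. Irf7 had 4.09 ± 0.12 at 4 days, Lcn2 6.24 ± 0.13 and Cck -6.01 ± 0.14. The interaction of Irf7 was 0.20 ± 0.17 and that of Cck -0.09 ± 0.19, and neither passed. Pigment genes were lower at both times and more so at 8 days, with a median of -1.16 at 4 days and 15 of 20 lower in the interaction. Pmel had -1.58 ± 0.07 and Tyr -1.34 ± 0.11 at 4 days, while Dct, at 0.02 ± 0.08, and Mc1r, at -0.05 ± 0.12, did not pass there. The NRF2 list had a median of -0.72 at 4 days and 14 of 24 higher in the interaction. Nqo1 had -2.87 ± 0.12 at 4 days and Slc7a11 -3.71 ± 0.12.

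**Figure D4:**
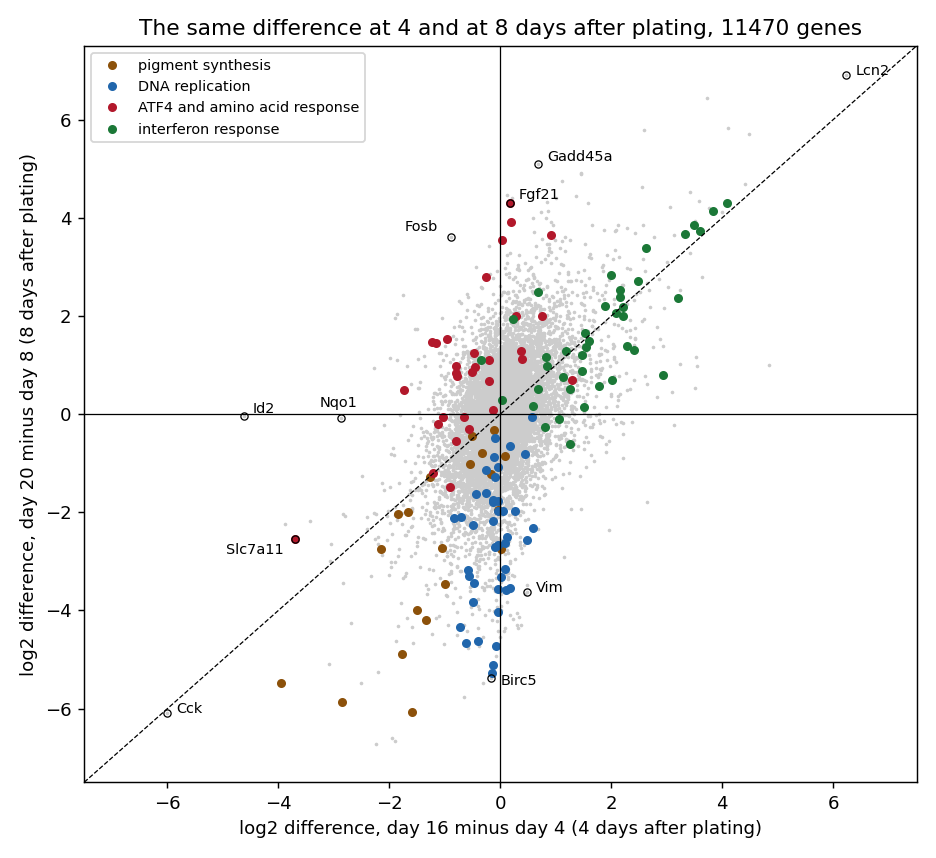
Log2 difference of day 16 minus day 4 (horizontal) and day 20 minus day 8 (vertical), 1 point per gene for 11470 genes, with 4 gene groups coloured; the dashed line marks equal differences. Many interferon genes lie near the dashed line, most DNA replication genes lie well below it and near 0 on the horizontal axis, and most ATF4 genes lie above it.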

How the data were processed

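Linear intensity values of 45281 probes were used as deposited, each with its detection p-value, per the file headers; the sources used here name no software or array version. The authors' deposited value table, of linear intensity too, holds straight-line transforms of the same signals with every array mean at 280.64 and column medians of 6.26 to 8.71, as its values show, and it was an alternative. It exchanges the set numbers of 6 columns, on days 4, 12 and 20; the signal table's numbers were used.

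Signals were background corrected and quantile normalised (neqc, offset 16, in limma 3.58.1 under R 4.3.3). The filter, detection p under 0.05 on 2 or more arrays, left 22978 probes, and the platform annotation gave 1 symbol to 19120 of them. Of all probes, 34885 had 1 symbol, 18 several and 10378 none. Each gene was represented by its brightest probe, which can compress differences near saturation. Day was a factor over all 12 arrays (lmFit, eBayes with trend, 6 residual degrees of freedom), with two-sided tests and Benjamini-Hochberg adjustment at 0.05 over 11470 genes. A fold marked "at least" belongs to a gene with all probes undetected on both arrays of a day: it sets the other day's mean over a floor, which on each array is the lowest detected value or the probe's own, whichever is higher. The number of arrays limits the precision.

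The comparison, the 41 gene lists and the rule for named genes were chosen with earlier results of these data known. The rule took the 12 highest and 12 lowest called genes whose arrays did not overlap, the 5 most changed called genes of each list and 2 against its majority, core genes whatever their value, and the 6 highest and 6 lowest interactions; exceptions are marked. Tested on simulated data, the fit gave no wrong direction but missed some changed genes, more of those with small changes, and fell short of the recovery first set as its floor, so a gene not called may still differ. Alternatives were other background, scaling, filter and probe choices, a replicate block, the value table and leaving out each array.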

Additional observations from a re-analysis of the deposited data

Results flagged for a closer look

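The difference between day 20 and day 8 differed from that between day 16 and day 4 for 6420 genes by the interaction test of limma (adjusted p under 0.05), which compares pairs of days that share no array. The results below are given for that test, without explanation.

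Among single genes, 6 had the largest positive interaction. Id2, an inhibitor of DNA binding, had 4.58, since it was -4.62 ± 0.08 at 4 days and -0.05 ± 0.08 at 8 days, where 2 other probes gave -2.0 and -1.85. Fosb had 4.5, Gadd45a 4.41, Hyal3, a hyaluronidase gene, 4.35, Arg2, an arginase gene, 4.19 and Atpaf2, an assembly factor gene of the ATP synthase, 4.17. Hyal3 and Arg2 were detected on no day 8 array and were at least 17.6-fold and 15.9-fold higher on day 20. Another Atpaf2 probe rose by 0.55 at 8 days.

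The 6 largest negative interactions were all genes of cell division. Birc5 had -5.22, Pbk -5.17, Tk1 -5.13, Pclaf -5.11, Mcm5 -4.99 and Foxm1 -4.86.

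By list, those with at least 10 measured members and 50% or more of them called in 1 direction of the interaction are given first. A smaller day 20 minus day 8 difference (30.3% of all genes) was called for 42 of 42 DNA replication genes, 32 of 34 of G2 and M phase, 18 of 24 of DNA repair, 15 of 20 pigment genes, 12 of 18 of glycolysis, 16 of 26 G1 regulators, 11 of 18 of sterol synthesis, 18 of 32 of extracellular matrix and adhesion, 14 of 27 of melanosome biogenesis and 6 of 12 neural crest genes. A larger difference (25.6% of all genes) was called for 26 of 31 ATF4 genes, 12 of 19 p53 targets, 17 of 28 ER chaperones, 17 of 28 on the list of immediate early and MAPK feedback genes, 14 of 24 on the NRF2 list, 11 of 19 aminoacyl-tRNA synthetases, 19 of 33 of ribosome biogenesis and 10 of 20 of purine and pyrimidine synthesis. Below that share but above the share of all genes lay, among others, 10 of 21 antigen presentation, 8 of 17 heat shock and 6 of 13 clock genes with a larger difference, and 13 of 30 lysosome, 12 of 28 proteasome and 10 of 24 hypoxia genes with a smaller one.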

How the results depend on the processing

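The number of genes tested differed between the alternatives. Without a filter 7788 of 19057 genes (40.9%) were called on day 20 against day 8. With only probes detected on all arrays 6523 of 8325 (78.4%) were called, against 68.3% above. Over the alternatives the count of genes called ranged from 6523 to 8017, around 7833. With the replicate block by set it was 8017, and with the set numbers of days 4, 12 and 20 exchanged in the replicate block 7747, and the block moved no list count by over 1.5 times; same-numbered arrays of days 8 and 20 deviated together with r = 0.139, and over all 15 pairs of days r ran from -0.029 to 0.267 with 8 over 0.1, so the set numbers, which would need every pair over 0.1, were not taken as a pairing. Without background correction the counts at 2-fold fell to 2110 (980 higher and 1130 lower), and that of the interaction to 1696. With only probes detected on all arrays, fewer genes were measured, since genes without such a probe, among them those undetected on day 20, dropped out. There 21 of 21 G2 and M phase genes fell and 11 of 15 acute phase genes rose. Of the DNA repair genes 11 of 15 fell (median -0.55, against -1.35). With median centring in place of quantile normalisation, members called higher numbered 4 for aminoacyl-tRNA synthetases, 1 for WNT targets, 10 for oxidative phosphorylation and 12 for ribosomal proteins; that scaling put the median of the brightest 2868 genes at -0.33, against -0.044. Leaving out 1 array gave 3 (without day 20 set 1) to 6 higher NOTCH genes, against 5. The other 671 values of these counts, overall and by list, stayed within 1.5 times.

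Of 287 single values, 266 kept their direction and side of the threshold under every alternative run. The sign turned for Pdia6 (0.114) and Tgfbr2 (0.215) with the mean of probes, and for Ccnd2 (-0.130) and Cdkn1a (-0.185) with median centring; the cause was not tested. Medians of the lists for aminoacyl-tRNA synthetases, heat shock, YAP, neural crest, glycolysis, ribosomal proteins, oxidative phosphorylation and both fatty acid lists changed sign under at least 1 alternative. Genes detected on neither day, 429 of those tested, have no measured level on either.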

Other observations

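Transcripts of the mitochondrial genome, chosen for description after the value of ND4L was seen, were mostly lower on day 20. Of 8 measured, 7 fell and 1 rose, beside 35.4% of all genes lower and 32.9% higher, with a median of -3.06. ND4, a complex I subunit, was at 13.98 and 14.12 on day 8 and 10.54 and 10.69 on day 20 and fell by 3.44 ± 0.08. ATP6, a subunit of the ATP synthase, was at 12.94 and 12.95 on day 8 and 9.59 and 9.66 on day 20 and fell by 3.33 ± 0.08. CYTB, cytochrome b, was at 14.64 and 14.52 on day 8 and 11.52 and 11.75 on day 20 and fell by 2.94 ± 0.08, COX2, a cytochrome oxidase subunit, fell by 3.18 ± 0.08, and ND1 by 1.45 ± 0.08. The arrays of the 2 days lay apart for each of these, at high levels on both days. The dim probe of ND5 rose by 0.84 ± 0.18 and that of ND6 fell by 1.60 ± 0.18. At 4 days after plating the median was -0.26, with 4 of 8 lower, beside 22.9% of all genes. In the interaction 6 of 8 were lower, beside 30.3% of all genes. Nuclear genes of oxidative phosphorylation had a median of 0.11.

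Of 3858 detected probes without a single gene symbol, 59.9% were called, 1312 higher and 998 lower on day 20, against 65.9% of detected probes with a symbol. At 2-fold, 598 of the unnamed probes were higher and 351 lower.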
